A study of Homo sapiens with 4 samples.

Results

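The 10 genes described here, BEX1, BEX2, BEX4, TCEAL4, TCEAL8, ARMCX1, ARMCX2, ARMCX3, ARMCX4 and ARMCX6, belong to 3 related gene families on the long arm of the human X chromosome, and all 10 were among the 18917 genes of the count table. They were selected on these data, because BEX1 fell and ARMCX4 rose strongly in cells that lack THUMPD1, so their own differences between the genotypes are a description, with no p-value. Where a member is said to be called, this only tells on which side of the threshold the fit over all genes placed it, and nothing is supported by it. RNA was sequenced from 4 libraries of HEK-293T, an immortalized human embryonic kidney line that the sample labels call HEK293. Of these, 2 came from wild-type (WT) cells and 2 from cells with THUMPD1 knocked out (KO), all grown in DMEM with 10% serum and 2 mM glutamine. THUMPD1 is the adaptor through which the enzyme NAT10 places N4-acetylcytidine on tRNA. The KO cells were made with CRISPR-Cas9 and went through single-cell sorting, so that an effect of the genotype and a property of the sorted line cannot be told apart. The labels do not say that the replicates were separate cultures, and p-values then measure only the spread between these libraries, which may be technical.

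BEX proteins ("brain expressed X-linked") are small and largely unstructured, and BEX1 and BEX3 are known as partners of the neurotrophin receptor p75NTR. TCEAL proteins resemble the transcription elongation factor TFIIS. ARMCX proteins carry armadillo repeats, and several of them sit on the outer membrane of mitochondria, where ARMCX1 and ARMCX3 act in mitochondrial transport along axons. The families are found in placental mammals, are prominent in brain, and are known to share a promoter element and to have exchanged sequence by gene conversion.

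Total counts were between 7875722 and 11362363 per library, and levels are given as CPM, counts scaled to TMM-adjusted library sizes. The floor was set at 3 counts, which in these libraries is 0.259 to 0.391 CPM. Counts of THUMPD1 itself were 356 and 468 in WT and 71 and 58 in KO, a log2 fold change of -2.93 (SE 0.17, edgeR adjusted p = 1.26e-12), in the direction of the labels. All 9 markers of the HEK-293T line reached 1 CPM in every library, with a summed level of 869 to 889 CPM in WT and 750 to 792 CPM in KO. Among them NEFM, a neurofilament, fell from 181 ± 5.49 to 24.7 ± 2.36 CPM (SD, n = 2 each, log2 fold change -2.87, SE 0.09, edgeR adjusted p = 4.06e-18), and 6 of the 9 had log2 fold changes above 0. The summed level of 10 markers of HeLa and other epithelial cells was 18.9 to 21.2 CPM in WT and 15.9 to 16.4 CPM in KO, with KRT5 and TM4SF1 at the floor. It was 27.1 to 31.4 and 25.4 to 30.4 CPM for 8 fibroblast markers, with COL1A2 and PDGFRB at the floor. For 8 blood cell markers it was 9.51 to 10.4 and 7.25 to 8.07 CPM, with CD3E, CD14, LYZ, HBB and HBG1 at the floor. The part of these differences in the results below was not tested. In bulk RNA, fewer cells with a transcript and less transcript per cell cannot be told apart.

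BEX1 RNA was far lower in the KO cells and ARMCX4 RNA several fold higher, while the other members that were measured differed little between the genotypes or varied between replicates. Of the 10 members, 9 reached 1 CPM in at least 2 libraries and entered the fit, and ARMCX1 did not. The fit called 4 of these 9 at an adjusted p under 0.05, BEX1, BEX4 and TCEAL4 as lower and ARMCX4 as higher in KO. Over all 13128 genes tested, 2748 were called, which is 20.9%, with 1154 higher (8.79%) and 1594 lower (12.1%). The libraries of the genotypes did not overlap for 5 of the 9 members, against 60.4% of all genes tested. The median log2 fold change was -0.15 over the 9 members and 0.01 over all genes tested. Nothing is read from these counts, since the members were selected on this contrast.

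**Figure D1:**
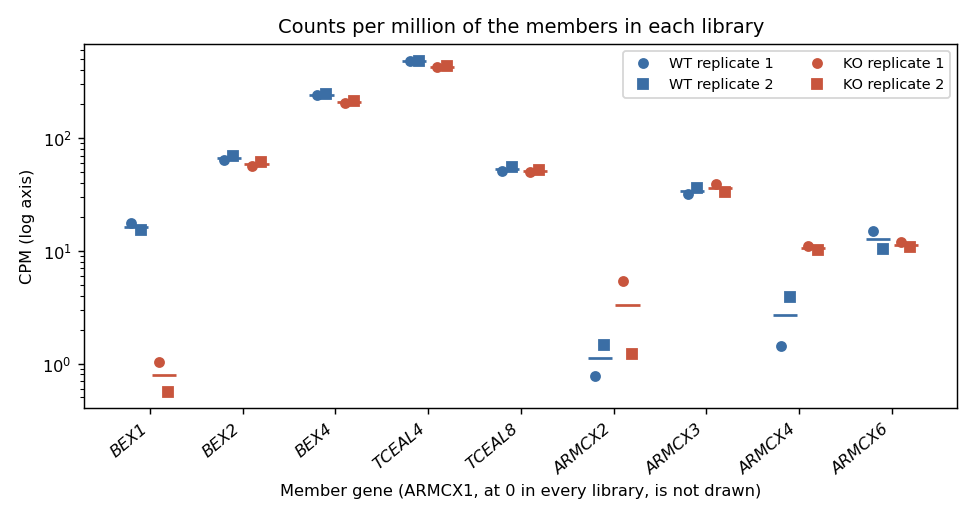
CPM on a log axis for each member and library, with WT in blue and KO in red, circles for replicate 1, squares for replicate 2 and short lines for the means. BEX1 sits at 17.6 and 15.3 CPM in WT and near 1 CPM or below in KO, ARMCX4 moves from 1.43 and 3.91 CPM to 11 and 10.2 CPM, and the more abundant members hardly shift.

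BEX1 (ENSG00000133169.6, chrX:103062651-103064171 on the minus strand of GRCh38 in GENCODE 44) encodes an adaptor of p75NTR signalling, and its whole coding sequence lies in 1 exon, as for every member. Its counts in WT were 135 and 168, or 17.6 and 15.3 CPM, and those in KO were 12 and 6, or 1.04 and 0.563 CPM. Both KO libraries were far below both WT libraries. The WT mean of 16.4 ± 1.64 CPM compared with 0.799 ± 0.334 CPM in KO (SD, n = 2 each), a fitted 20-fold lower level (log2 fold change -4.32, SE 0.34). BEX1 ranked 5 of 13128 by the size of its log2 fold change. The value was between -4.83 and -3.97 when each library was left out in turn. Of all 50-base stretches in its annotated transcripts, 3.49% also occur in BEX2, and 2.13% of those of BEX2 occur in BEX1. Within the KO libraries BEX2 had far more counts than BEX1, 659 and 660 against 12 and 6. The part of BEX2 reads in the low KO counts of BEX1 was not tested.

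ARMCX4 (ENSG00000196440.12, chrX:101418287-101533459 on the plus strand of GRCh38 in GENCODE 44) encodes the longest protein of the ARMCX family, and none of the 50-base stretches of its transcripts occurs in another gene. Its counts were 11 and 43 in WT and 127 and 109 in KO. In CPM, with exact Poisson 95% intervals that cover counting error only, this was 1.43 (0.715 to 2.56) and 3.91 (2.83 to 5.27) in WT and 11 (9.13 to 13.0) and 10.2 (8.40 to 12.3) in KO. The KO libraries lay close together and above both WT libraries, whose own intervals did not overlap each other. The WT mean of 2.67 ± 1.75 CPM compared with 10.6 ± 0.519 CPM in KO (SD, n = 2 each), a fitted 3.76-fold higher level (log2 fold change 1.91, SE 0.33), which ranked 55 among the rises. The size rested on which WT library was used, with a log2 fold change of 1.44 without WT replicate 1 and 2.88 without WT replicate 2.

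**Figure D2:**
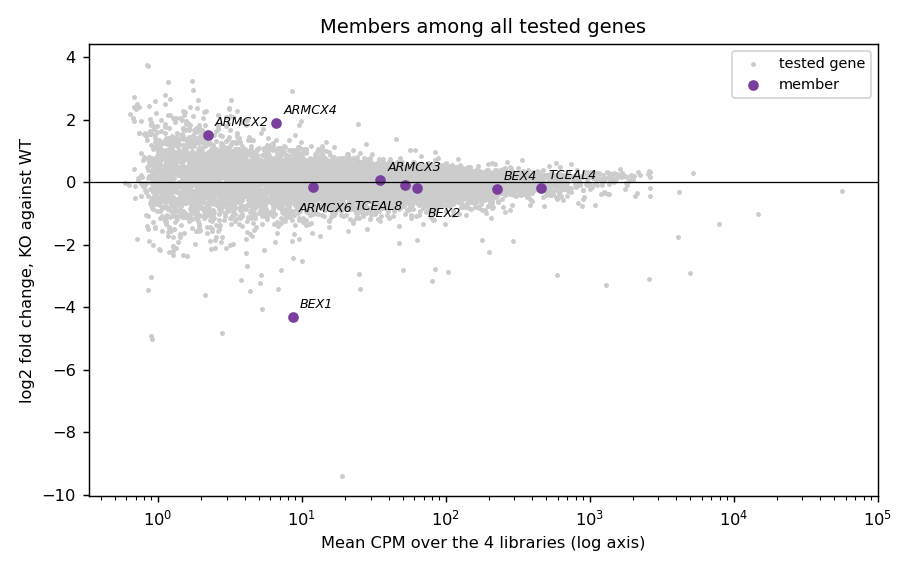
Log2 fold change, KO against WT, against mean CPM over the 4 libraries (log axis), with the 13128 tested genes in grey and the 9 tested members in purple. BEX1 at -4.32 lies far below the cloud, ARMCX4 at 1.91 and ARMCX2 at 1.53 lie at its upper edge among genes of low level, and the other 6 members lie close to 0.

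The members that moved most in opposite directions have nearly the same sequence just before a start of transcription. In RefSeq (GRCh38.p14), the promoter window of BEX1 was compared by global alignment, over the 250 bases before the start, with 34960 other windows. The closest was that of the second annotated start of ARMCX4, which lies 67.2 kb after the first, with 205 identical bases of 233 aligned (88.0%). The next was a window of BEX3, with 192 of 225 (85.3%), and the alignment score then dropped from 116.5 to 5 for the best window outside the families. The first start of ARMCX4 had 59.9% identity, and the other annotated starts of BEX3 had 65.7% and 62.6%. The counts do not tell which start was used. The 150 bases before each of these starts are printed 5′ to 3′ because they carry this likeness, with capitals for the letters CACGTG, an E-box, and for TGACG, part of a cyclic AMP response element. They lie at chrX:103064172-103064321 (minus strand) for BEX1, chrX:101485306-101485455 (plus strand) for ARMCX4 and chrX:103376388-103376537 (plus strand) for BEX3.
BEX1: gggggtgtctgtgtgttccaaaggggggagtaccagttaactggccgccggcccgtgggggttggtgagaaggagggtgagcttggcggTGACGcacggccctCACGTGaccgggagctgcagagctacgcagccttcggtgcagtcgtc
ARMCX4: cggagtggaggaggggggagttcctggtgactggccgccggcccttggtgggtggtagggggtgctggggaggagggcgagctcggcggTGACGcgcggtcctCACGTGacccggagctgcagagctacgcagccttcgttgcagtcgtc
BEX3: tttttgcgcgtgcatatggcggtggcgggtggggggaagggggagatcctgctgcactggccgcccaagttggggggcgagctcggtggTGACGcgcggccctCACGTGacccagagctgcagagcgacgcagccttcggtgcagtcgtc

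In all 3 stretches the E-box begins 47 bases before the start. Over these 150 bases, ARMCX4 had 120 identical bases of 140 aligned with BEX1 (85.7%) and BEX3 had 109 of 132 (82.6%). The 250 bases held 19 CpG dinucleotides for BEX1, 21 for ARMCX4 and 18 for BEX3, against a median of 11 over all windows.

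The E-box also stood before most other family genes. The motifs were chosen after the sequences were seen, each was searched on both strands (CACGTG and TCACGTGA read the same on either), and a match describes letters in a window and no site or cause. A promoter window was at hand for 9 of the 10 members, all but ARMCX3. A gene counts if any of its windows has the motif. CACGTG occurred in the 250 bases before a start in 8 of these 9, and in 15 of 22 genes of the families and their relatives. Among all 27195 genes with a window the share was 7.74%. With the 50 bases after the start CACGTG occurred in all 9, ARMCX6 being the one added, against 8.79% of genes. The longer TCACGTGA, which contains CACGTG, occurred in the 250 bases of 6 of the 9 members and of 12 of the 22 genes, against 1.04% of genes. TGACG with 3 to 12 bases between it and a following CACGTG occurred in 4 of the 9 members and in 10 of the 22 genes, against 0.173% of genes. The stretches around the box in other members are printed with the E-box in capitals, to show how its surroundings differ from those of BEX1 and ARMCX4. Their positions in GRCh38.p14 are chrX:103310992-103311039 (minus strand) for BEX2, chrX:103215059-103215106 (plus) for BEX4, chrX:103585475-103585514 (plus) for TCEAL4, chrX:103255169-103255216 (minus) for TCEAL8, chrX:101550488-101550535 (plus) for ARMCX1 and chrX:101659893-101659940 (minus) for ARMCX2.
BEX2: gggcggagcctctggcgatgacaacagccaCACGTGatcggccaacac
BEX4: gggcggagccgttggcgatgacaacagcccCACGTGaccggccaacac
TCEAL4: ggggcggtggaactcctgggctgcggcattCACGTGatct
TCEAL8: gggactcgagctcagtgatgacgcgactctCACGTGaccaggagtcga
ARMCX1: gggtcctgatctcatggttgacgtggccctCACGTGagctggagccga
ARMCX2: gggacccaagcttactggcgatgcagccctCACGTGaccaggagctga

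The members with the box differed widely in how they changed, from -4.32 for BEX1 to 1.91 for ARMCX4, with TCEAL8 at -0.08 on the log2 scale. Outside the families, 183 tested genes had TCACGTGA in the 250 bases. Of these, 9 were higher and 31 lower in KO, so that 21.9% were called, with a median log2 fold change of -0.02. Of the 9914 tested genes outside the families with a window, which include these 183, 854 were higher and 1207 lower. That is 20.8% called, with a median of 0.01. The difference between these sets was not tested.

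**Figure D3:**
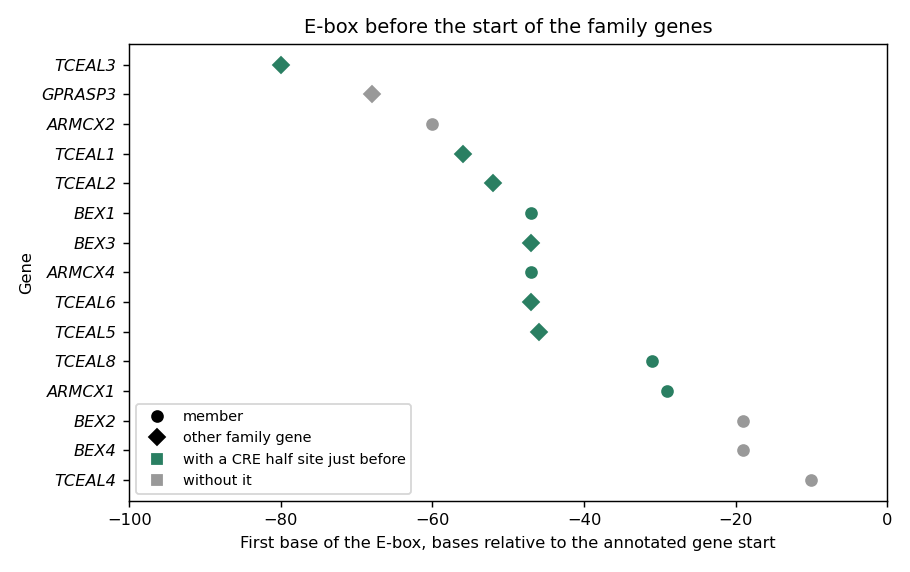
First base of the E-box relative to an annotated start, in bases, for the 15 family genes that have it in the 250 bases before that start. The start is the RefSeq start whose window holds the box. For ARMCX4 it is the second start. In several other genes, TCEAL4, BEX3 and TCEAL6 among them, it is not the gene start of GENCODE. Circles are members, diamonds are other family genes, and green marks those with TGACG just before the box. The box lies within 80 bases of the start in all 15, and at 47 bases in BEX1, ARMCX4, BEX3 and TCEAL6.

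Among the other BEX genes the differences were small for the abundant members and larger for the scarcer BEX5. BEX2, known for roles in cell survival, had 63.8 and 69.5 CPM in WT and 56.9 and 61.9 CPM in KO. The genotypes did not overlap, but the gap between them was smaller than that between replicates, and the log2 fold change of -0.17 (SE 0.10) was not called. BEX4, which associates with microtubules, had 241 and 245 CPM in WT and 204 and 214 CPM in KO, with no overlap. Its log2 fold change of -0.22 (SE 0.06) was called, and the call was lost with scaling by library size alone (-0.13), without WT replicate 2 (-0.21) and without KO replicate 1 (-0.18).

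BEX3 and BEX5 are no members. BEX3, listed under its older name NGFRAP1 and known as a p75NTR-associated cell death executor, fell from 183 ± 11.4 to 139 ± 0.544 CPM (SD, n = 2 each, log2 fold change -0.40, SE 0.07, edgeR adjusted p = 0.000169). BEX5 counts were 56 and 65 in WT and 30 and 17 in KO. It fell from 6.60 ± 0.981 to 2.09 ± 0.703 CPM (log2 fold change -1.64, SE 0.39, edgeR adjusted p = 0.00328). Both calls held whichever library was left out.

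All 5 BEX genes of the table were tested, and all 5 lay below 0 with no overlap between the genotypes, 4 of them called, with a median log2 fold change of -0.40. Over all genes tested, 12.1% were called lower and 60.4% did not overlap. Of these 5 BEX genes, 3 are members, selected on this contrast, and nothing is read from the count. The summed BEX level reached 521 and 510 CPM in WT and 402 and 417 CPM in KO. BEX1 made up 3.38% and 2.99% of that sum in WT and 0.257% and 0.135% in KO, so that most of the drop in the sum came from BEX4 and BEX3.

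The TCEAL genes differed little. TCEAL4, the most abundant member, had 487 CPM in both WT libraries and 425 and 435 CPM in KO. Its replicates lay close together and its log2 fold change of -0.18 (SE 0.06) was called, but the call was lost whichever library was left out and with library size alone (-0.10), the upper quartile (-0.15) or limma-voom (-0.14). TCEAL8 had 51.3 and 55.7 CPM in WT and 49.6 and 52.2 CPM in KO. These ranges overlapped, and the log2 fold change of -0.08 (SE 0.10) turned to 0.01 with library size alone.

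Of the 7 other TCEAL genes, 3 were tested. TCEAL9, listed as WBP5, was higher in KO (86.8 ± 0.725 against 101 ± 1.20 CPM, SD, n = 2 each, log2 fold change 0.22, SE 0.08, edgeR adjusted p = 0.0484), a call that was lost with DESeq2, with no filter and whichever library was left out. TCEAL1 had a log2 fold change of 0.05 (SE 0.15, edgeR adjusted p = 0.855) and TCEAL3 one of 0.06 (SE 0.14, edgeR adjusted p = 0.787). Both signs turned without WT replicate 1 or without KO replicate 1. TCEAL1 shares 14.5% of its 50-base stretches with TCEAL3, which lies beside it, so that their counts are uncertain. TCEAL2, TCEAL5 and TCEAL7 had at most 4 counts in any library, and TCEAL6 had none.

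The ARMCX genes other than ARMCX4 gave no call in the fit. ARMCX3, which links mitochondria to the transport machinery, had 31.7 and 36.1 CPM in WT and 39.2 and 33.2 CPM in KO. The groups overlapped (log2 fold change 0.09, SE 0.13), and without KO replicate 1 the value was -0.03. ARMCX6 had 15.1 and 10.3 CPM in WT and 11.9 and 10.7 CPM in KO. The KO libraries lay between the WT libraries, and the log2 fold change of -0.15 (SE 0.22) became 0.14 without WT replicate 1. Its transcripts share 40.4% of their 50-base stretches with other annotated genes, so that its counts are uncertain.

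ARMCX2 counts were 6 and 16 in WT and 63 and 13 in KO, or 0.782 and 1.45 CPM against 5.44 and 1.22 CPM. A single library, KO replicate 1, stood apart, and KO replicate 2 lay between the WT libraries. The log2 fold change of 1.53 (SE 0.62) was not called and became 0.08 without KO replicate 1. It passed the threshold with library size alone (1.62), with no filter (1.53), without WT replicate 2 (2.09) and without KO replicate 2 (2.22). ARMCX1 was listed at 0 in every library, and its transcripts share no 50-base stretch with another gene. By counting error alone, a count of 0 allows a level of up to the floor, 0.259 to 0.391 CPM by library. ARMCX5 and GPRASP1, a relative that binds G protein-coupled receptors, were also listed at 0. HNRNPH2 and GLA, widely expressed genes of the same region, were listed at 0 in every library too, beside a mean of 941 CPM for the read-through gene RPL36A-HNRNPH2, and ARMCX5-GPRASP2 had a mean of 45.0 CPM. How reads of overlapping genes were assigned is not given, so that a listed 0 sets no firm limit on the level of ARMCX1, ARMCX5 or GPRASP1. GPRASP3, listed as BHLHB9, and ARMC10, the autosomal relative of the ARMCX genes on chromosome 7, had log2 fold changes of -0.02 (SE 0.16, edgeR adjusted p = 0.956) and 0.01 (SE 0.15, edgeR adjusted p = 0.964). GPRASP3 shares 88.8% of its 50-base stretches with other transcripts, mostly of the read-through gene ARMCX5-GPRASP2, so that its counts are uncertain. GPRASP2 was not listed in the count table under that symbol, so its expression was not analysed here.

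**Figure D4:**
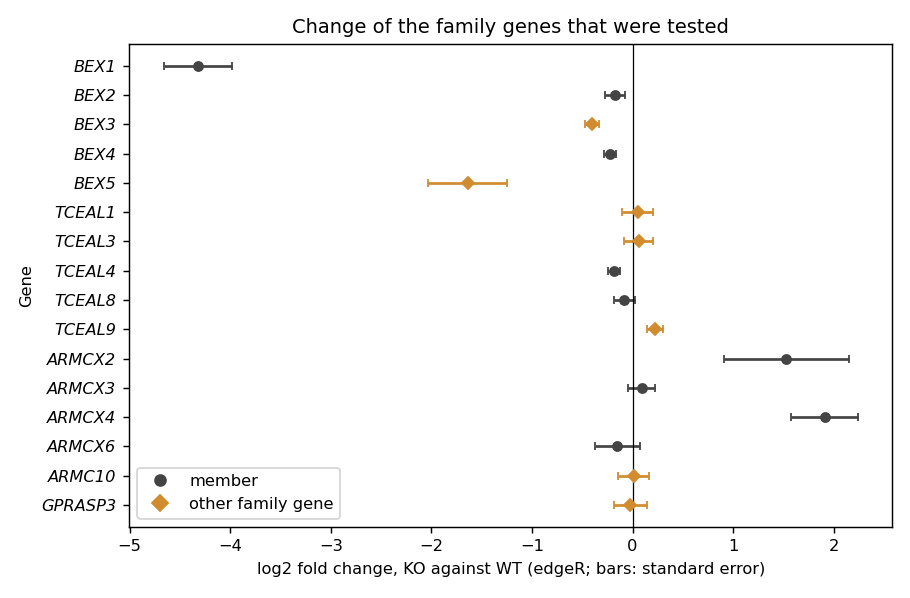
Log2 fold change, KO against WT, of the 16 family genes that were tested, with bars for the standard error, circles for members and diamonds for other family genes. All 5 BEX genes lie left of 0, the TCEAL genes lie within 0.22 of it, and ARMCX4 and ARMCX2 lie to the right, ARMCX2 with the widest bar.

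Levels were compared between genes per length, as CPM per kb of the longest annotated transcript. In WT the mean was 310 for TCEAL4, 185 for BEX4, 61.9 for BEX2, 45.6 for TCEAL8, 20.7 for BEX1, 9.08 for ARMCX3, 6.58 for ARMCX6, 0.397 for ARMCX2 and 0.346 CPM per kb for ARMCX4. Each pair of neighbours in that order was separated in the WT libraries, except ARMCX2 and ARMCX4, which overlapped. In KO, BEX1 stood at 1.01 ± 0.420 CPM per kb, below ARMCX3 at 9.70 ± 1.13, and ARMCX4 reached 1.37 ± 0.0672 (SD, n = 2 each). By this length BEX1 thus left the middle of the family for its lower end, near ARMCX4 and ARMCX2. ARMCX2 had 1.93 and 0.433 CPM per kb in the KO libraries. With the mean length over transcripts in place of the longest, ARMCX4 in WT was at 0.888 and ARMCX2 at 1.0 CPM per kb. By that mean length, BEX1 in KO was at 1.01, below ARMCX2 at 2.99 and ARMCX4 at 3.52 CPM per kb. BEX4 and TCEAL4 held between 78.2% and 80.0% of the counts of the 10 members in each library, and the summed level of the members was 910 and 924 CPM in WT and 804 and 819 CPM in KO.

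Most tested genes next to BEX1 and ARMCX4 on the chromosome had values near 0. The exceptions were ARMCX2, at 242 kb from ARMCX4, described above, and TMSB15A. BEX4, TCEAL8 and BEX2, the nearest tested genes after BEX1 at 151, 191 and 247 kb, had log2 fold changes of -0.22, -0.08 and -0.17. On its other side, GPRASP3 and ARMCX5-GPRASP2 were not called, and TMSB15A, a thymosin at 547 kb, was higher in KO (log2 fold change 0.96, SE 0.30, edgeR adjusted p = 0.0225), a call that was lost with DESeq2, without KO replicate 2 and without WT replicate 2, where it was 0.52. The tested genes before ARMCX4, RPL36A-HNRNPH2 at 27 kb, TIMM8A at 69 kb and DRP2 at 198 kb, had log2 fold changes of -0.06, -0.23 and -0.15, and none was called. Within 2 Mb on each side of BEX1, 30 genes were tested. Of the 15 counted as outside the families, which include the read-through gene ARMCX5-GPRASP2, 2 were higher and 1 was lower. Their median log2 fold change was 0.02. Over chromosome X, 55 of 444 tested genes were higher and 51 lower (23.9% called), with a median of 0.03. Over all genes tested, 20.9% were called, 8.79% higher and 12.1% lower, with a median of 0.01.

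**Figure D5:**
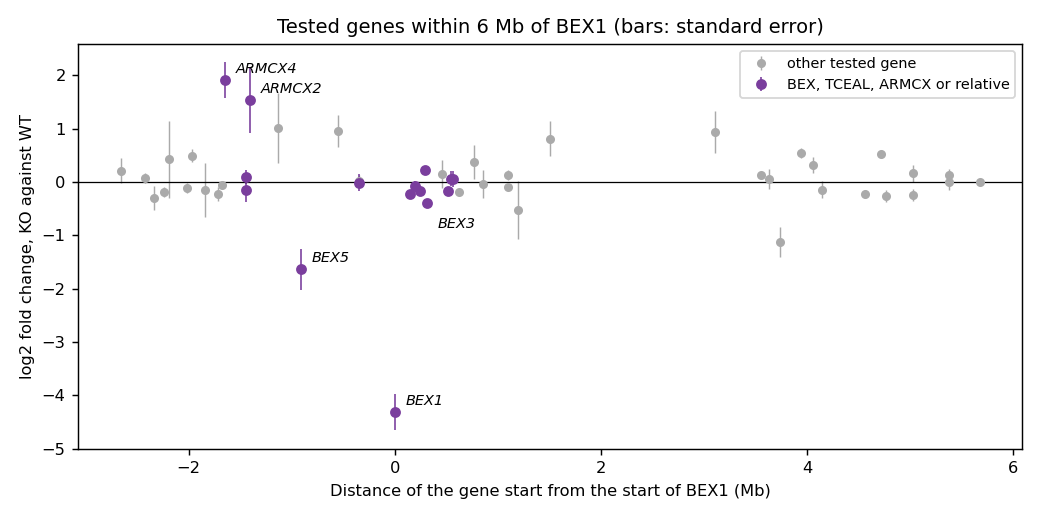
Log2 fold change, KO against WT, with bars for the standard error, against the distance of each tested gene's start from that of BEX1 in Mb, with the families and their relatives in purple and other genes in grey. BEX1 and BEX5 lie far below 0 and ARMCX4 and ARMCX2 far above it, among neighbours that mostly lie near 0.

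A wider list of genes around the families held 55 genes outside them, of which 29 were tested. It had 4 genes higher and 3 lower in KO, 24.1% of those tested against 20.9% of all genes tested, with a median of 0.06. The 4 that rose were TMSB15A, MORC4 (log2 fold change 0.54, SE 0.10, edgeR adjusted p = 0.000275), TSC22D3, the glucocorticoid-induced leucine zipper (0.52, SE 0.07, adjusted p = 6.87e-06), and CENPI, a centromere protein (0.49, SE 0.12, adjusted p = 0.00474). The 3 that fell were TBC1D8B (-1.12, SE 0.28, edgeR adjusted p = 0.00566), PRPS1, an enzyme of nucleotide synthesis (-0.23, SE 0.07, adjusted p = 0.0128), and MORF4L2 (-0.19, SE 0.06, adjusted p = 0.0277). Without KO replicate 1, 4 of the list were called and all were higher, with TBC1D8B at -0.71. The list had 6 genes higher and 1 lower with library size alone, 4 and 1 with limma-voom, and 7 and 1 without WT replicate 1, and PRPS1 and MORF4L2 lost their calls in these 3 fits.

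Genes that work with the families were counted from 3 lists. Over all genes tested, 20.9% were called, 8.79% higher and 12.1% lower. Among these 13128 genes, 2027 were higher and 2343 lower at an unadjusted p under 0.05. Of 20 tested genes of p75NTR signalling, edgeR called none higher and 3 lower (15.0%, median log2 fold change -0.08). At an unadjusted p under 0.05, 5 were higher and 6 lower, while DESeq2 called none higher and limma-voom 1. These were MAGED1, a partner of p75NTR in cell death (217 ± 9.61 against 134 ± 8.87 CPM, SD, n = 2 each, log2 fold change -0.69, SE 0.07, edgeR adjusted p = 7.94e-08), IRAK1 (-0.21, SE 0.06, adjusted p = 0.0158) and ARHGDIA (-0.20, SE 0.06, adjusted p = 0.0247). Without WT replicate 2 or without KO replicate 1, 1 gene of the list was called, and IRAK1 and ARHGDIA each kept the call in 1 of the 4 fits that leave out a library. With library size alone, 3 genes were called higher and 1 lower. The receptor gene NGFR itself had few reads, with counts of 9 and 14 in WT and 18 and 12 in KO (log2 fold change 0.13, SE 0.63, edgeR adjusted p = 0.911), near the limit of detection.

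Of 32 tested genes of RNA polymerase II elongation, edgeR called none higher and 7 lower (median -0.11). That is 21.9% of the list, near the 20.9% of all genes tested, and its split by direction was not tested. At an unadjusted p under 0.05, 1 of the 32 was higher and 11 were lower. Among all 13128 genes tested, 2027 were higher and 2343 lower at that threshold. DESeq2 and limma-voom called none of the list higher. The largest falls were in PAF1 (log2 fold change -0.43, SE 0.07, edgeR adjusted p = 0.000108), RTF1 (-0.34, SE 0.08, adjusted p = 0.00314), TCEB2 (-0.32, SE 0.07, adjusted p = 0.000819), SUPT5H (-0.31, SE 0.08, adjusted p = 0.00412) and TCEB1 (-0.30, SE 0.09, adjusted p = 0.0134). PAF1 and RTF1 belong to the PAF1 complex, SUPT5H is a subunit of DSIF, and TCEB1 and TCEB2 are elongins. The TFIIS genes that TCEAL proteins resemble, TCEA1 (0.02), TCEA2 (-0.09) and TCEA3 (-0.38), were not called. Without KO replicate 1, 2 genes of the list were called. With library size alone, 2 genes were called higher and 4 lower.

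Of 23 tested genes of mitochondrial transport and dynamics, 3 were higher and 3 lower (26.1%, against 20.9% of all genes tested, median 0.00). MGARP (log2 fold change 0.60, SE 0.14, edgeR adjusted p = 0.00295), OPA1, the inner membrane fusion protein (0.47, SE 0.09, adjusted p = 0.000468), and DNM1L, the fission protein (0.26, SE 0.07, adjusted p = 0.0144), rose. KIF5C, a kinesin heavy chain (-2.89, SE 0.15, edgeR adjusted p = 1.33e-13), RHOT2 (-0.69, SE 0.11, adjusted p = 4.62e-05) and MYO19 (-0.25, SE 0.08, adjusted p = 0.0197) fell. KIF5C holds a copy of 95 bases of the mitochondrial ribosomal RNA MT-RNR1 with 98.9% identity. Its counts were 62092 and 103572 in WT against 9687 and 16330 in KO. The part of that copy in its counts was not tested. RHOT1 (-0.04), TRAK1 (0.11) and TRAK2 (0.00), the Miro and adaptor genes that ARMCX3 is known to work with, were not called. Leaving out 1 library ended the call of MGARP and DNM1L (KO replicate 2) and of MYO19 (WT replicate 2 or KO replicate 1). RHOT2 and TCEB2 lie on chromosome 16, as THUMPD1 does, where 290 of 573 tested genes were lower and 5 higher with a median log2 fold change of -0.44. The part of that shift in their values was not tested.

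The genes whose pattern was most like that of BEX1 or ARMCX4 were found by Euclidean distance over the 4 libraries, on log2(CPM + 1) centred on each gene, among 11111 genes. This is a description of 4 points with the genotypes in common. For BEX1 these were CYBA, a subunit of NADPH oxidase, on chromosome 16 (distance 0.21), PDE3A, a phosphodiesterase, on chromosome 12 (0.354), and PID1 on chromosome 2 (0.373). CYBA counts were 360 and 506 in WT and 55 and 42 in KO, so that like BEX1 it was low in both KO libraries. The median log2 fold change of chromosome 16 was -0.44, and the part of that shift in CYBA was not tested. Adding 1 CPM makes the change of a scarce gene such as BEX1 smaller in the distance. The fitted log2 fold change was -3.41 for CYBA, -3.09 for PDE3A and -3.17 for PID1, against -4.32 for BEX1. For ARMCX4 they were DPYSL3, a protein of growing axons, on chromosome 5 (distance 0.303), and ACSBG2 (0.445) and ZNF83 (0.538) on chromosome 19. DPYSL3 counts were 62 and 141 in WT and 460 and 409 in KO, with WT replicate 1 the lowest library, as for ARMCX4.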

How the data were processed

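The authors deposited counts as whole numbers, not normalized, for each gene symbol in 2 WT and 2 KO libraries, mapped to genotype by their labels. The submitters' processing notes name the build hg19, and the aligner and counter of these counts are not given in the sources used here. The study's RNA-seq methods name STAR and RSEM on GRCh38 and another kit and another number of samples per genotype than the labels do, so that which protocol made these libraries is not settled. Strand use in counting is not given, and reads of overlapping or antisense genes cannot be told apart. The authors' own comparison table (log2 fold changes, p-values) was not used.

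Counts were fitted in R 4.3.3 with edgeR 4.0.16 (glmQLFit, glmQLFTest, TMM) on genotype. Each SE, in the text and figures, is the absolute log2 fold change divided by the square root of that test's F value. A gene entered if 2 or more libraries had 1 CPM or more, which left 13128 genes for Benjamini-Hochberg adjustment at a threshold of 0.05. An exact permutation test of 2 against 2 libraries cannot go below p = 0.333, two-sided, and was not used. The common biological coefficient of variation was 6.75%. Total counts were 7875722 and 11362363 in WT and 11156804 and 10446988 in KO. Floors and intervals hold counting error alone, since reads without molecular identifiers are not independent molecules. DESeq2 1.42.0 and limma 3.58.1 (voom, quantile), other scalings and filters, the replicate number as a block and leaving out each library served as alternatives.

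The counts carry no coordinates. Positions came from GENCODE 44 (GRCh38), matched by symbol for 12167 genes and through a RefSeq synonym for 846, with 115 unmatched, and promoter windows from RefSeq (GRCh38.p14). Alignments used Biopython 1.88 and blastn 2.17.0. The members and lists were chosen with earlier results of these data known. Named are all members and family relatives, THUMPD1, from each other list the 5 largest rises and 5 largest falls among called genes averaging 5 CPM or more, and the 3 genes nearest in pattern to BEX1 and to ARMCX4 at that same level. Genes beside BEX1 and ARMCX4, and NGFR, RHOT1, TRAK1, TRAK2 and the TCEA genes, were named after their values were seen.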

Additional observations from a re-analysis of the deposited data

How the results depend on the processing

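The falls of BEX3 and BEX5 kept their direction and their call under every alternative run. BEX1 and ARMCX4 were selected for their change in these libraries, so that no stability is read from their values, which were -4.83 to -3.97 and 1.44 to 2.88 when 1 library was left out. BEX1 has no value with at least 10 counts required in every library. Of all genes, 2748 were called, against 1764 with DESeq2, and 1620 to 2591 when 1 library was left out, with the lowest count without KO replicate 1. The calls were 1154 higher and 1594 lower, but 2078 higher and 1160 lower with library size alone, 1392 and 1438 when scaled by the upper quartile, and 1279 and 1349 with limma-voom. Library size alone moved the median log2 fold change of all genes from 0.01 to 0.09. Leaving out 1 library gave 2 to 4 members called, 4 to 8 genes around the families, 2 to 7 of RNA polymerase II elongation and 1 to 4 of p75NTR signalling, for which no filter gave 5. The lone library left in a genotype was taken to vary like the other genotype. Signs turned for genes that were not called. TCEAL8 was 0.01 with library size alone, and GPRASP3 was 0.07 under that scaling and 0.01 under upper quartile scaling. Leaving out 1 library gave -0.03 to 0.20 for ARMCX3, -0.42 to 0.14 for ARMCX6, -0.17 to 0.34 for TCEAL1, -0.06 to 0.22 for TCEAL3, -0.09 to 0.05 for GPRASP3 and -0.07 to 0.10 for ARMC10. The cause was not tested. The replicate numbers do not pair the libraries by design, and deviations of libraries with the same number correlated at 0.0301 across genes. The fit with the replicate number as a block called 3222 genes, 4 members, 3 relatives, 8 genes around the families, 7 of mitochondrial transport, 8 of elongation and 3 of p75NTR signalling. Depth limits NGFR and the scarcer TCEAL genes, which had few counts, whereas for ARMCX2 the KO replicates disagreed, with 63 and 13 counts.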
